A study of Mus musculus with 6 samples.

Results

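The germline V segments of the immunoglobulin loci were followed in RNA from sorted mouse spleen CD4 T cells, cells that assemble T cell receptor genes and are not known to make antibody. The members were the rows of the deposited count table whose gene identifier carries a symbol starting with Ighv, Igkv or Iglv in the GENCODE annotation of GRCm38, which gave 348 of the 47729 genes of the table. They comprised 185 heavy chain segments (Ighv, chromosome 12, 113572927 to 116010093), 160 kappa segments (Igkv, chromosome 6, 67555497 to 70704177) and 3 lambda segments (Iglv, chromosome 16, 19085017 to 19260859). By annotated biotype 216 were functional V segments, 130 were V pseudogenes and 2 had the separate biotype IG_LV. RNA was sequenced from 3 groups of 2 samples. OFF cells came from spleens of RBPJind mice whose water held doxycycline (Dox) over 3 weeks, with a further week free of it while the cells matured. ON cells came from RBPJind mice that drank it for 4 weeks. Both were sorted as CD3+CD4+CD25-CD45RBint. RBPJ is the protein that carries Notch signals to DNA, and the series describes OFF cells as unresponsive and ON cells as responsive to Notch while they matured. WT cells came from wild-type spleens and were sorted through the gate CD3+CD4+CD25-CD45RBhi. Thus WT differed from both RBPJind groups in genotype and in CD45RB gate together, and these cannot be told apart. All 6 samples carry the treatment label Dox, with no duration stated for WT. The labels do not say how many mice stood behind a sample or which cells express the inducible RBPJ.

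An antibody chain is encoded by a V segment that has been joined to J segments (and, in the heavy chain, a D segment) in the DNA of a developing B cell and spliced to a constant gene in its RNA. Each B cell and its descendants use mostly 1 heavy and 1 light chain V segment, and plasma cells, the antibody-secreting descendants of B cells, hold very large amounts of that RNA. T cells do not complete these joins as a rule, and V segments that have not been joined can still give RNA from their own promoters at low level. V pseudogenes carry defects that prevent a working chain.

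The 3′ end of a V segment encodes the end of its last framework region, where a tyrosine, a second residue and the conserved cysteine of the V domain follow each other. The last 60 bases of the spliced transcript are given, 5′ to 3′ from GENCODE transcripts on GRCm38. They are shown for the 8 functional members with the highest counts in a single library, and for 2 members that match the marked letters differently. Capitals mark the letters TANTNNTGN, which can spell tyrosine, a residue whose codon starts with T, and cysteine or tryptophan or stop.
Ighv4-1: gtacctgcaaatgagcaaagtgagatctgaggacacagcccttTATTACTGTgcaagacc
Ighv6-3: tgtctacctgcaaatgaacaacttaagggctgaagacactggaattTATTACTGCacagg
Ighv14-2: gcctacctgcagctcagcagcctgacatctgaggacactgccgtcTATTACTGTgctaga
Ighv1-81: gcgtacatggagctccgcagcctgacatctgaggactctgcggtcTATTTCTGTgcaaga
Ighv7-3: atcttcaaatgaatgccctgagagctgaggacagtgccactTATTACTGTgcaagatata
Igkv8-28: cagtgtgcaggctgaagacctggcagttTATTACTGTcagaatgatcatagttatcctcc
Igkv1-110: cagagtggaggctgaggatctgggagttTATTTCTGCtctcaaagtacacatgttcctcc
Iglv1: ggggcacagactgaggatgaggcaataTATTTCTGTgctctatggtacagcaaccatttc
Igkv1-136: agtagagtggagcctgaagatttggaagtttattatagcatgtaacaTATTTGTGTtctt
Ighv1-62-1: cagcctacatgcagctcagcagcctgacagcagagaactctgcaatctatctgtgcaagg
In the last 40 bases of the sense strand these letters stood in 207 of 216 functional segments (95.8%), in 77 of 130 V pseudogenes (59.2%) and, over the annotation, in 2199 of 55450 genes (3.97%). Ighv1-62-1, which is annotated as functional, had no match in this window. Its letters tatctgtgc can spell tyrosine, leucine and cysteine, and the pattern misses them because the middle codon starts with C. Igkv1-136, a pseudogene, had its match 4 bases before the end, whereas in the 5 functional Igkv members with 20 or more counts it ended 23 bases before the end. The pattern was widened to admit phenylalanine at the middle residue after the sequences had been seen, and a match is a description of letters only.

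Immunoglobulin V segments were a trace of every library. In CPM, counts scaled to a common depth with TMM library sizes, they summed to 13.0 and 13.2 in OFF 1 and OFF 2, 18.3 and 8.70 in ON 1 and ON 2, and 10.4 and 8.35 in WT 1 and WT 2. Libraries held between 17025551 and 19319183 counts in genes. The V segments of the T cell receptor loci, by contrast, gave 6085 and 6562 counts in OFF, 7686 and 7468 in ON and 5527 and 5153 in WT, which is 21.5 to 42.4 counts for each immunoglobulin V count. T cell markers summed to between 2758 and 3735 CPM per library. Of the 348 members 234 had at least 1 count and 114 had none in any library. Of the 234, 200 had 1 to 9 counts over the 6 libraries, 20 had 10 to 19, and 14 reached 20. All members together had 1299 counts.

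By locus, Ighv segments summed to 114 and 98 counts in OFF, 201 and 98 in ON, and 96 and 74 in WT. Igkv segments summed to 101 and 104 counts in OFF, 122 and 71 in ON, and 78 and 69 in WT. Iglv segments summed to 11 and 18 counts in OFF, 35 and 7 in ON, and 1 and 1 in WT. ON 1 was the highest library in the Ighv and Iglv sums, and the OFF libraries lay above both WT libraries in every locus. The Ighv sum averaged 6.23 ± 0.492 CPM in OFF, 7.55 ± 3.82 in ON and 5.01 ± 1.01 in WT (SD, n = 2 each). The Igkv sum averaged 6.03 ± 0.293 CPM in OFF, 4.87 ± 1.92 in ON and 4.32 ± 0.457 in WT. The Iglv sum averaged 0.857 ± 0.315 CPM in OFF, 1.07 ± 1.02 in ON and 0.0588 ± 0.00113 in WT. Lambda segments therefore showed the widest ratio, with pooled counts 14.5-fold higher in OFF than in WT (95% counting interval 3.67 to 126) and 17.9-fold higher in ON than in WT (4.67 to 153). Without ON 1 the lambda log2 ratio of ON to WT was 2.56, against 4.18 with it, and the Ighv log2 ratio of ON to WT was -0.05, against 0.59. Counting intervals cover counting error and not the spread between samples, and no test was made on a sum over members. In bulk RNA, fewer cells of a type and less RNA per cell cannot be told apart.

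**Figure D1:**
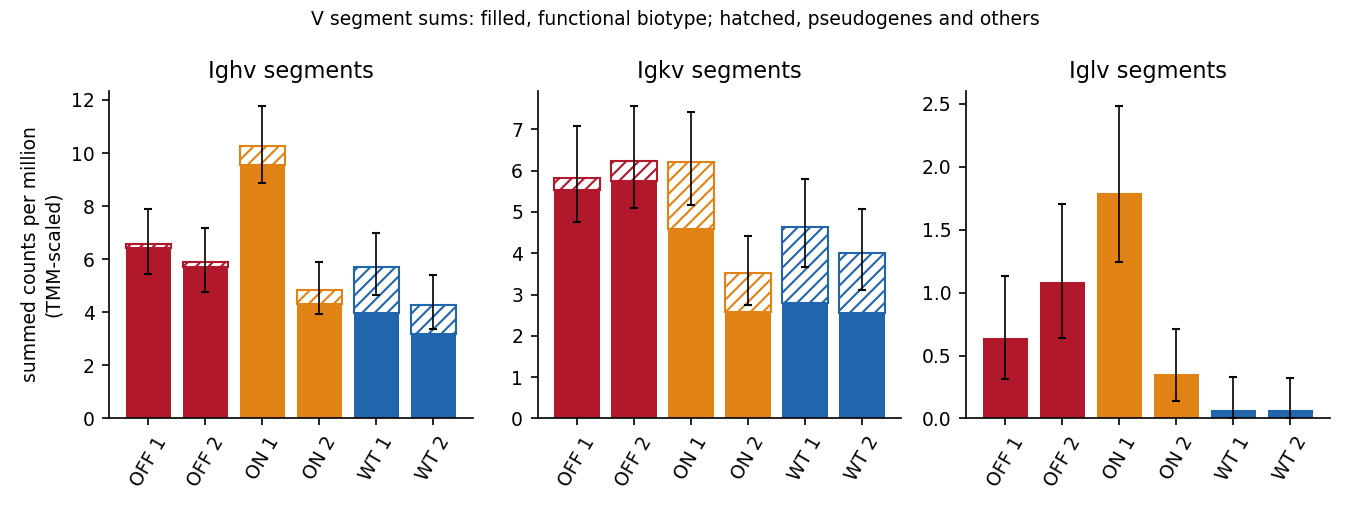
Summed CPM of the Ighv, Igkv and Iglv segments in each library (OFF red, ON orange, WT blue), with filled bars for functional segments and hatched bars for pseudogenes and IG_LV segments; error bars are exact 95% Poisson intervals of the sum. Lambda segments had 1 count in each WT library, and the hatched share was largest in the WT bars of Igkv, at 39.7% and 36.2%.

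The 14 members with 20 or more counts were 7 Ighv, 6 Igkv and 1 Iglv segments, and 13 of them were functional. Counts are given for replicate 1 and then replicate 2 of a group. Ighv6-3 (chromosome 12, 114391712 to 114392169, minus strand), the member with the most counts, had 3 and 3 in OFF, 45 and 2 in ON, and 1 and 0 in WT. Ighv4-1 (chromosome 12, 113948282 to 113948796, minus strand) had 0 and 2 in OFF, 46 and 0 in ON, and 0 and 0 in WT. Both had most of their counts in ON 1, and the groups OFF and ON overlapped. Ighv14-2 (chromosome 12, 113994469 to 113994898, minus strand) had 29 and 0 in OFF, 0 and 0 in ON, and 4 and 0 in WT. Ighv1-81 (chromosome 12, 115920279 to 115920712, minus strand) had 23 and 7 in OFF, with 0 in both ON and both WT libraries. Ighv1-81 was thus found in both OFF libraries and in no other, at least 11.7-fold higher in OFF than in ON and at least 10.01-fold higher than in WT when each group at 0 is set at 3 counts. Without OFF 1 these bounds were 5.58-fold and 4.76-fold. Ighv7-3 had 2 and 2 in OFF, 1 and 23 in ON, and 0 and 1 in WT. Ighv1-26 had 5 and 5 in OFF, 2 and 3 in ON, and 1 and 12 in WT, and so was seen in all 6 libraries with its highest count in WT 2. Ighv1-62-1 had 0 and 2 in OFF, 0 and 7 in ON, and 6 and 6 in WT. In CPM both WT libraries of Ighv1-62-1, at 0.358 and 0.348, lay just above the highest other library, ON 2 at 0.346. It overlaps the gene Gm19331, and without strand the reads of overlapping genes cannot be told apart.

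Among kappa segments Igkv1-110 (chromosome 6, 68270485 to 68271267, plus strand) had 1 and 21 counts in OFF, 0 and 0 in ON, and 7 and 2 in WT. Igkv8-28 (chromosome 6, 70143593 to 70144166, minus strand) had 23 and 1 in OFF and 0 in both ON and both WT libraries. Igkv1-88 had 1 and 1 in OFF, 18 and 0 in ON, and 0 and 0 in WT. These 3 segments each had 1 library with most of their counts, OFF 2, OFF 1 and ON 1 in that order. Igkv14-111 was the most even member, with 6 and 7 counts in OFF, 4 and 6 in ON, and 1 and 5 in WT. Igkv12-46 had 0 and 4 in OFF, 1 and 10 in ON, and 0 and 9 in WT. The pseudogene Igkv1-136 (chromosome 6, 67594012 to 67594308, plus strand) had 1 and 3 in OFF, 7 and 7 in ON, and 5 and 2 in WT, and its ON libraries lay above all 4 others.

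The mouse lambda locus has few V segments, and the annotation lists 3. Iglv1 (chromosome 16, 19085017 to 19085500, minus strand) had 6 and 6 counts in OFF, 27 and 6 in ON, and 1 and 0 in WT. Iglv3 had 5 and 8 in OFF, 3 and 0 in ON, and 0 and 0 in WT, and Iglv2 had 0 and 4 in OFF, 5 and 1 in ON, and 0 and 1 in WT. Iglv1 and Iglv3 were above both WT libraries in both OFF libraries, and Iglv3 was at least 4.34-fold higher in OFF than in WT with WT set at 3 counts (at least 2.14-fold without WT 2). Iglv3 itself was chosen for description because the locus has only 3 members, and its sum of 16 lies under the threshold of 20. Iglv1 overlaps 2010309G21Rik, so its counts carry the same doubt about strand as those of Ighv1-62-1. At the threshold, Igkv1-88 with 20 counts and Ighv1-62-1 with 21 were just inside, and Igkv4-59 with 18 and Ighv1-11, Ighv1-54, Igkv1-117 and Igkv1-135 with 17 each were just outside.

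**Figure D2:**
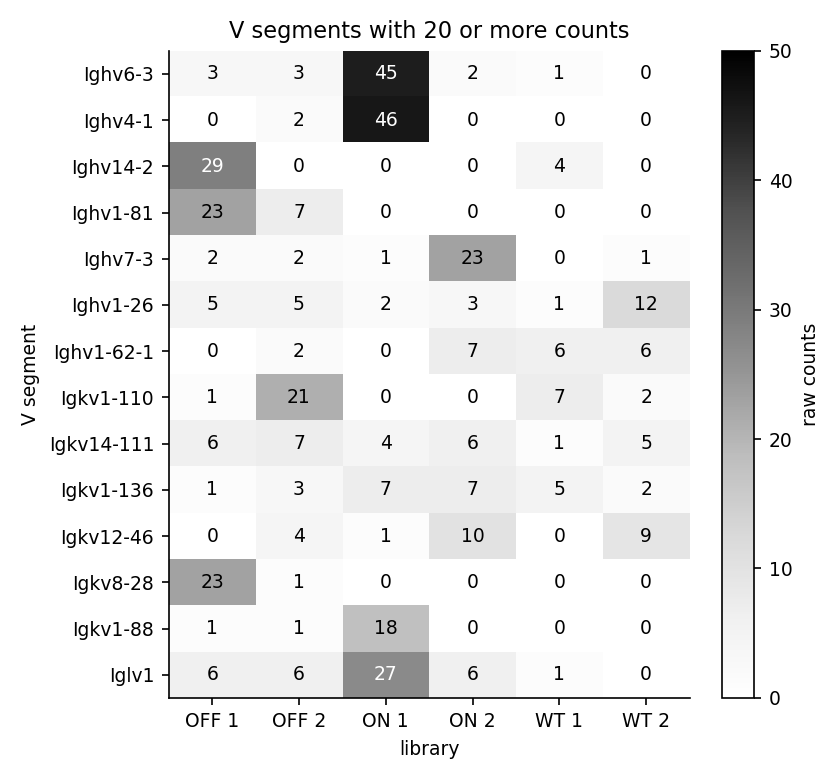
Raw counts of the 14 V segments with 20 or more counts (rows, grouped by locus) in each library (columns), with darker cells for higher counts. Dark cells stand mostly alone in a row: 46 counts of Ighv4-1 and 45 of Ighv6-3 in ON 1, 29 of Ighv14-2 in OFF 1 and 23 of Ighv7-3 in ON 2.

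The 14 members differed in how their counts were spread over the libraries. Of the 14, 9 had over 50% of their counts in 1 library and 5 had over 80%, with a median of 72.2% and a range of 24.1% to 95.8%. Since a member with few counts elsewhere reaches 20 only through the library in which it is high, the threshold itself favours such members, and these shares are a description. The library with the most counts was ON 1 for 5 members, ON 2 for 3, OFF 1 for 3, OFF 2 for 2, WT 2 for 1 and WT 1 for none. Over all 348 members a segment reached 10 counts in a library 18 times, and each time the segment was functional. ON 1 held 8 of these, which besides those named were Igkv1-135 and Ighv10-1 with 12 counts each, Ighv1-55 with 11 and Igkv8-24 with 10. OFF 1 held 6, among them Igkv4-59 and Ighv1-11 with 16 counts each and Igkv8-16 with 10. ON 2 held 2 and OFF 2 and WT 2 held 1 each. These segments supplied 117 of 226 V counts in OFF 1 and 21 of 220 in OFF 2, 181 of 358 in ON 1 and 33 of 176 in ON 2, and 0 of 175 in WT 1 and 12 of 144 in WT 2.

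The rest of the counts were spread thinly. The top heavy chain segment held 25.4% of Ighv counts in OFF 1 (Ighv14-2, 29 counts) and 8.16% in OFF 2 (Ighv5-17, 8 counts), 22.9% in ON 1 (Ighv4-1) and 23.5% in ON 2 (Ighv7-3), and 6.25% in WT 1 (Ighv1-62-1) and 16.2% in WT 2 (Ighv1-26). Brought to an equal 144 V counts per library, the expected number of different segments was 52.2 and 67.5 in OFF, 55.8 and 57.4 in ON, and 85.5 and 77.0 in WT. Both WT libraries thus spread their V counts over more segments, pseudogenes included, than any RBPJind library. Before depth was made equal, pseudogenes with a count numbered 7 and 8 in OFF, 20 and 13 in ON, and 34 and 32 in WT. Functional segments with a count numbered 61 and 76 in OFF, 68 and 50 in ON, and 61 and 45 in WT. Over the 348 members, 108 were seen in only 1 library, and 3 (Igkv14-111, Ighv1-26 and Igkv1-136) in all 6.

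No V segment could enter the replicated test at its usual setting. The filter of edgeR (filterByExpr) kept 15780 genes and none of the 348 members, so at an adjusted p under 0.05 the count of V segments called was 0 in each comparison by construction. With the groups compared only by whether their libraries overlap in CPM, 6 of the 14 members (42.9%) stood apart in OFF against ON, as did 46.5 percent of all 20049 genes with 20 or more counts. The 5 above in OFF were Igkv1-110, Ighv1-81, Igkv14-111, Ighv1-26 and Igkv8-28, where 20.4 percent of all such genes lay above. The 1 below was Igkv1-136, where 26.1 percent lay below. In ON against WT 5 stood apart (35.7%), as did 54.9 percent of all such genes. Ighv6-3, Iglv1 and Igkv1-136 lay above in ON (25.5 percent of all such genes) and Igkv1-110 and Ighv1-62-1 below (29.4 percent). In OFF against WT 8 stood apart (57.1%), as did 56.1 percent of all such genes. In OFF 7 lay above (Ighv6-3, Iglv1, Ighv1-81, Ighv7-3, Igkv14-111, Igkv8-28 and Igkv1-88), beside 25.1 percent of all such genes, and Ighv1-62-1 lay below, beside 31.1 percent. In all 3 comparisons the members' share in either direction together was near or under that of all genes.

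Tested without the filter, 234 V segments entered a fit of 38977 genes by edgeR's quasi-likelihood test with Benjamini-Hochberg adjustment. Between OFF and WT 1 of them passed at an adjusted p under 0.05, where 2.24 percent of all genes did (1.76 percent higher in OFF). It was Ighv1-81, higher in OFF by 7.04 ± 1.43 on the fitted log2 scale (SE, adjusted p = 0.0358 by edgeR, 2 of 2 OFF libraries above both WT libraries), a value that depends on the prior count because WT was at 0. The call was lost in each of the 6 fits that left out a library, with an adjusted p of up to 0.356. Between OFF and ON 0 of the 234 passed (6 at an unadjusted p under 0.05), where 0.323 percent of all genes did, and between ON and WT 0 passed (7 at an unadjusted p under 0.05), where 4.28 percent did. DESeq2 without the filter gave no adjusted p for any of the 234, with 1, 5 and 1 of them at an unadjusted p under 0.05 for OFF against ON, ON against WT and OFF against WT. At the usual filter edgeR called 162 genes (1.03 percent) between OFF and ON, 2342 (14.8 percent) between ON and WT and 1078 (6.83 percent) between OFF and WT.

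Functional V segments and V pseudogenes were ordered differently across the groups. Functional segments had 218 and 209 counts in OFF, 312 and 146 in ON, and 115 and 100 in WT. In CPM they averaged 12.6 ± 0.0248 in OFF, 11.6 ± 6.14 in ON and 6.33 ± 0.745 in WT (SD, n = 2 each). Pseudogenes had 8 and 11 counts in OFF, 46 and 30 in ON, and 57 and 44 in WT, or 0.561 ± 0.140 CPM in OFF, 1.91 ± 0.609 in ON and 2.97 ± 0.597 in WT. Both OFF libraries thus lay above both WT libraries in functional segments and below all 4 other libraries in pseudogenes. The pooled functional count was 1.99-fold higher in OFF than in WT (95% counting interval 1.68 to 2.35) and 1.82-fold higher in ON than in WT (1.54 to 2.15), and OFF stood at 1.09-fold of ON (0.955 to 1.25). The ratios with ON rested on ON 1, which had 15.9 CPM of functional segments, against 7.22 in ON 2. Without ON 1, ON stood at 1.14-fold of WT (0.920 to 1.42) and OFF at 1.74-fold of ON (1.44 to 2.11), whereas without ON 2 OFF stood at 0.790-fold of ON (0.681 to 0.917). The pooled pseudogene count in OFF was 0.188 of that in WT (0.109 to 0.309) and 0.293 of that in ON (0.167 to 0.489), and in ON it was 0.643 of that in WT (0.471 to 0.874).

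As a share of all V counts, pseudogenes made up 3.54% and 5% in OFF, 12.8% and 17.05% in ON, and 32.6% and 30.6% in WT. The exact 95% binomial intervals were 1.54% to 6.86% in OFF 1 and 2.52% to 8.77% in OFF 2, 9.56% to 16.8% in ON 1 and 11.8% to 23.4% in ON 2, and 25.7% to 40.1% in WT 1 and 23.2% to 38.8% in WT 2. No library of one group fell within the range of another. The share was 2.63% and 3.06% in OFF, 6.97% and 11.2% in ON, and 27.1% and 25.7% in WT among Ighv counts, and 4.95% and 7.69% in OFF, 26.2% and 26.8% in ON, and 39.7% and 36.2% in WT among Igkv counts. Of the 2 IG_LV segments, Ighv1-13 and Ighv5-8, only one had counts, 3 in WT.

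Counts on other genes that T cells are not known to use were also lowest in OFF. The 1784 odorant and vomeronasal receptor genes (Olfr and Vmn symbols) summed to 315 and 375 counts in OFF, 1071 and 803 in ON, and 1504 and 943 in WT, which is 18.2 and 22.5 CPM in OFF, 54.6 and 39.7 in ON, and 89.6 and 54.7 in WT. The number of genes with a count was 24210 and 25061 in OFF, 29456 and 28288 in ON, and 33138 and 30592 in WT. Reads in no annotated gene made up 22.4% and 17.01% of the reads listed in OFF, 22.3% and 23.96% in ON, and 24.6% and 27.1% in WT. OFF was lowest and WT highest in all but the last of these, in which OFF 1 lay just above ON 1. The part of these library-wide differences in the pseudogene counts was not tested.

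**Figure D3:**
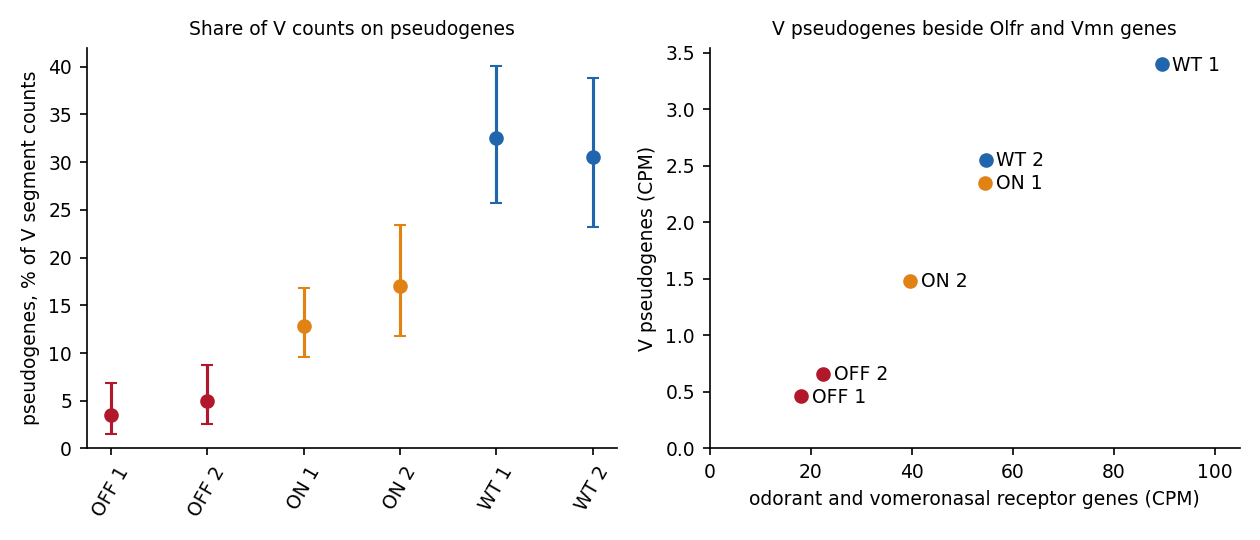
Left, the share of V counts that fell on pseudogenes in each library, with exact 95% binomial intervals; right, the CPM of V pseudogenes (y axis) against the CPM of odorant and vomeronasal receptor genes (x axis), 1 point a library. OFF points (red) lie lowest in both panels, from 3.54% to 5% on the left.

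Constant genes, to which joined V segments are spliced, gave a partly different order from the V sums. Igkc, the kappa constant gene, had 256 and 300 counts in OFF, 204 and 81 in ON, and 14 and 31 in WT. It rose in OFF relative to WT by 3.62 ± 0.50 on the log2 scale (SE, adjusted p = 0.00458 by edgeR) and in ON relative to WT by 2.44 ± 0.53 (adjusted p = 0.0193 by edgeR). The OFF to ON difference of 1.19 ± 0.38 did not pass (adjusted p = 0.148 by edgeR), but without ON 1 it was 2.03 and passed (adjusted p = 0.0122 by edgeR), and without ON 2 it was 0.64. Iglc2, a lambda constant gene, had 23 and 23 counts in OFF, 44 and 23 in ON, and 2 and 1 in WT, and rose in OFF (log2 3.84, adjusted p = 0.0191 by edgeR) and in ON (log2 4.15, adjusted p = 0.00545 by edgeR) relative to WT. Iglc3 had 60 and 61 in OFF, 22 and 31 in ON, and 4 and 4 in WT, and rose in OFF (log2 3.88, adjusted p = 0.00207 by edgeR) and in ON (log2 2.46, adjusted p = 0.0212 by edgeR) relative to WT. Iglc1, whose counts were 16 and 19 in OFF, 86 and 8 in ON, and 3 and 1 in WT, passed in no comparison with all 6 libraries by edgeR. Without ON 2 it passed in all 3, lower in OFF than in ON and higher in both than in WT, and without ON 1 in OFF against WT. With DESeq2 or the replicate block (adjusted p = 0.00156 and 0.0315) it passed in ON against WT, and with only the libraries of the 2 groups in OFF against WT (adjusted p = 0.0285 by edgeR). Without WT 1 or WT 2 the ON calls of Igkc, Iglc2 and Iglc3 and the OFF call of Iglc2 did not hold, with adjusted p between 0.0671 and 0.162 by edgeR. Leaving out OFF 2 also ended the ON call of Igkc and the OFF call of Iglc2 (adjusted p = 0.0524 and 0.0764 by edgeR), the ON call of Igkc also ended without the low-count filter (adjusted p = 0.0553 by edgeR), and leaving out ON 2 ended the ON call of Iglc3 (adjusted p = 0.0661 by edgeR). The OFF call of Igkc ended when OFF 2 or WT 1 was left out (adjusted p = 0.0704 and 0.0641 by edgeR), and that of Iglc3 held in all 6 such fits.

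Ighm, the constant gene of IgM, behaved unlike the light chain genes. It had 3092 and 3434 counts in OFF, 2739 and 2522 in ON, and 3240 and 3050 in WT, the most of any constant gene in every library. Relative to WT it fell in ON by 0.49 ± 0.13 on the log2 scale (SE, adjusted p = 0.0320 by edgeR, not kept without ON 2, WT 1 or WT 2, with the replicate block or without the low-count filter) and differed in OFF by 0.05 ± 0.13 (adjusted p = 0.865 by edgeR). Ighd, the constant gene of IgD, had 88 and 168 counts in OFF, 109 and 61 in ON, and 39 and 32 in WT, and rose in OFF relative to WT by 1.85 ± 0.43 (adjusted p = 0.0354 by edgeR, not kept without OFF 2, WT 1 or WT 2 or with the replicate block). Of 13 constant genes listed, 7 were tested. In OFF relative to WT 4 were higher, where 4.70 percent of all tested genes were. In ON relative to WT 3 were higher and 1 lower, where 9.68 and 5.16 percent of all tested genes were. In OFF relative to ON 0 passed by edgeR, with 3 at an unadjusted p under 0.05, which became 2 higher without ON 1 (Igkc and Ighm) and 1 lower without ON 2 (Iglc1). The 4 became 1 without OFF 2, 1 without WT 1 and 2 without WT 2, and the 3 became 0 without WT 1 or WT 2. The 1 lower in ON than in WT was Ighm. With DESeq2 Ighm was also called higher in OFF than in ON (log2 0.53, adjusted p = 0.0253 by DESeq2). The median log2 difference of the 7 was 3.05 in OFF relative to WT, where the median of all tested genes was 0.01, and 2.44 in ON relative to WT, where it was -0.02. None of the 34 immunoglobulin D and J segments passed the filter, and they summed to 47 and 58 counts in OFF, 36 and 23 in ON, and 22 and 11 in WT.

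The number of V counts for each 100 constant gene counts differed by chain. For kappa it was 39.5 and 34.7 in OFF, 59.8 and 87.7 in ON, and 557 and 223 in WT, so that kappa V counts exceeded Igkc counts in WT only. With functional segments alone it was 37.5 and 32.0 in OFF, 44.1 and 64.2 in ON, and 336 and 142 in WT. For lambda it was 11.1 and 17.3 in OFF, 22.7 and 11.3 in ON, and 11.1 and 16.7 in WT, from 1 V count in each WT library. For the heavy chain against Ighm it was 3.69 and 2.85 in OFF, 7.34 and 3.89 in ON, and 2.96 and 2.43 in WT. T cell receptor V segments gave 50.5 and 46.3 per 100 constant counts in OFF, 54.9 and 54.8 in ON, and 49.8 and 48.7 in WT, a far narrower range. Lambda made up 9.82% and 14.8% of light chain V counts in OFF, 22.3% and 8.97% in ON, and 1.27% and 1.43% in WT. Of light chain constant counts it made up 27.9% and 25.7% in OFF, 43.02% and 43.4% in ON, and 39.1% and 16.2% in WT. Both WT libraries were thus lowest among V counts. Among constant counts WT 2 was lowest, while WT 1 lay between the OFF and the ON libraries. The exact 95% binomial interval of the constant gene share was 19.7% to 61.5% in WT 1 and 6.19% to 32.01% in WT 2. These are ratios of summed counts per gene, not per length.

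**Figure D4:**
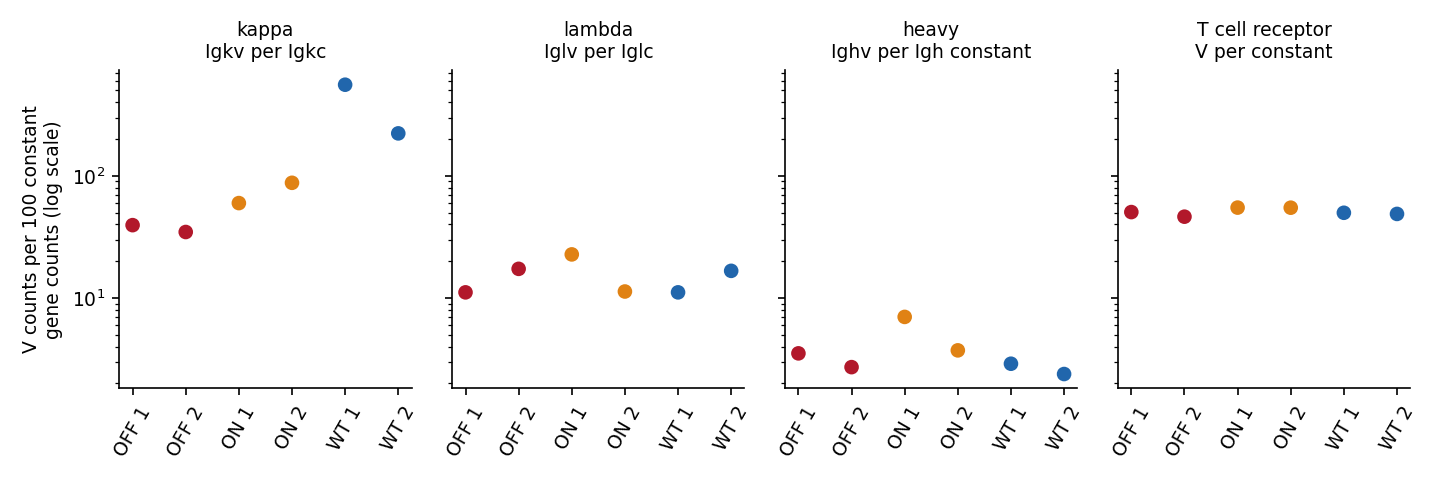
V segment counts per 100 constant gene counts of the same chain in each library, on a log scale, for kappa, lambda, heavy and T cell receptor chains (OFF red, ON orange, WT blue); the heavy panel uses all Igh constant genes. Kappa is the panel in which WT stands apart, at 557 and 223 against 34.7 to 87.7 in the RBPJind libraries.

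Of the 18 cases of 10 or more counts in a library, 3 are set beside constant genes here, and these pairs were picked after their values had been seen. In ON 1 the 27 counts of Iglv1 stood beside 86 of Iglc1 and 46 of Jchain, the joining chain of secreted IgM and IgA. In ON 2 the 23 counts of Ighv7-3 stood beside 31 of Ighg1, the IgG1 constant gene, which had 5 and 0 in OFF, 3 in ON 1, and 6 and 4 in WT. In OFF 1 the 29 counts of Ighv14-2 stood beside 41 of Igha, the IgA constant gene, which had 0 in OFF 2, 3 and 2 in ON, and 18 and 2 in WT. Other cases stood beside low counts of Ighg1, Igha and Ighg2b. In ON 1, where Ighv4-1 had 46 counts and Ighv6-3 45, Ighg1 and Igha had 3 counts each and Ighg2b 8. Ighm had 2739 counts and Ighd 109 in ON 1, so whether these segments had a partner there cannot be told. Conversely, WT 1 had 18 counts of Igha with no V segment at 10. Whether these V and constant sequences lay on the same RNA molecules cannot be read from counts per gene. Jchain had 27 and 11 counts in OFF, 46 and 25 in ON, and 1 and 3 in WT, and rose in ON relative to WT (log2 3.85, adjusted p = 0.0119 by edgeR, not kept without WT 1 or WT 2), while the OFF to WT difference did not pass (log2 3.17, adjusted p = 0.0651 by edgeR) but did without ON 1 or ON 2, with only the libraries of the 2 groups and with DESeq2.

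Relative to WT, markers of B cells moved with the light chain genes. The 20 listed B cell genes summed to 318 and 426 CPM in OFF, 347 and 297 in ON, and 76.6 and 63.0 in WT. Without Cd74 and H2-Aa, antigen presentation genes that myeloid cells also use, the sums were 98.9 and 157 CPM in OFF, 85.6 and 78.4 in ON, and 37.2 and 34.6 in WT. The highest of the remaining genes in OFF were Cxcr5 and Pou2af1. Cxcr5 had 311 and 577 counts in OFF, 314 and 305 in ON, and 92 and 98 in WT. Pou2af1 had 256 and 463 in OFF, 156 and 164 in ON, and 130 and 83 in WT. Whether T cells made part of these sums was not tested. Cd22 was lower in OFF than in ON, with 133 and 160 counts in OFF, 315 and 254 in ON, and 45 and 41 in WT. Its log2 difference in OFF relative to ON was -0.73 (unadjusted p = 0.00666, adjusted p = 0.123 by edgeR). That of Cd72 was -0.20, and those of the other tested B cell genes were positive. Of the 19 B cell genes tested, 16 rose in OFF and 9 rose in ON relative to WT, where 4.70 and 9.68 percent of all tested genes did. In OFF relative to ON 0 passed by edgeR (13 at an unadjusted p under 0.05), which became 2 higher without OFF 1 and 1 higher without ON 1 or ON 2. The 16 became 7 without OFF 2, 7 without WT 1 and 5 without WT 2, and the 9 became 5 without ON 2 and 3 without WT 1 or WT 2. Ms4a1, which encodes CD20, had 70 and 140 counts in OFF, 86 and 43 in ON, and 13 and 14 in WT. It rose in OFF relative to WT (log2 2.95, adjusted p = 0.0151 by edgeR) and in ON relative to WT (log2 2.02, adjusted p = 0.0493 by edgeR). Cd79a and Cd79b, the signalling chains of the B cell receptor, also rose in OFF relative to WT, by 2.16 and 2.24 on the log2 scale (adjusted p = 0.0166 and 0.0124 by edgeR). In ON relative to WT Cd79b rose (log2 1.87, adjusted p = 0.0166 by edgeR, not kept without WT 1 or WT 2). Cd79a did not pass there (log2 1.10, adjusted p = 0.137 by edgeR). The OFF calls of Ms4a1, Cd79a and Cd79b did not hold without OFF 2, WT 1 or WT 2. The ON call of Ms4a1 did not hold without ON 1, WT 1 or WT 2, with the replicate block (adjusted p = 0.0773 by edgeR), with RLE scaling (0.0508) or without the low-count filter (0.0733). Myeloid markers summed to 32.7 and 47.8 CPM in OFF, 44.6 and 38.9 in ON, and 15.7 and 14.9 in WT, with 2 of 6 tested genes higher in OFF and 3 of 6 higher in ON relative to WT. The OFF count became 1 without WT 1, and the ON count became 1 without ON 1, WT 1 or WT 2. Of 12 plasma cell genes 9 were tested, of which 2 were higher in OFF and 3 in ON relative to WT. Of all tested genes 4.70 and 9.68 percent were. The OFF count fell without OFF 2, WT 1 or WT 2 and rose without ON 1 or ON 2. The ON count fell without WT 1 or WT 2 and rose without ON 2. The median log2 difference of the 9 was 0.54 in OFF and 0.645 in ON relative to WT. In this list Irf4 had 413 and 571 counts in OFF, 684 and 558 in ON, and 113 and 133 in WT. Prdm1 had 197 and 299 in OFF, 706 and 421 in ON, and 91 and 90 in WT. Which cells made them was not tested. The plasma cell surface genes stayed low, with Tnfrsf17 (BCMA) at 3 and 0 counts in OFF and 0 in ON and WT, and Sdc1 (CD138) at 5 and 7 in OFF, 4 and 9 in ON, and 12 and 5 in WT. The gates named CD3 and CD4 for all samples, and the part of other cells in the V counts was not tested. Of 6 early B cell genes 1 was tested and 0 passed in any comparison, with summed levels of 5.70 to 14.3 CPM over the 6 libraries. The 1 tested was Dntt, which held most of these counts in every library. It had 137 and 89 in OFF, 98 and 270 in ON, and 156 and 201 in WT. Which cells made Dntt RNA was not tested.

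Along the chromosome, V counts were not confined to a few places. In the kappa locus the 40 segments nearest the J cluster (34 of them functional, 18.7 to 822 kb away) held 46.5% and 29.8% of Igkv counts in OFF, 23.0% and 11.3% in ON, and 12.8% and 5.80% in WT. The 40 farthest, 22 of them functional, held 23.8% and 46.2% in OFF, 40.2% and 52.1% in ON, and 55.1% and 44.9% in WT. OFF libraries therefore lay above WT libraries among the nearest segments, while among the farthest the groups overlapped. Igkv8-28, which lies among the nearest, alone held 22.8% of Igkv counts in OFF 1. In the heavy chain locus the 46 nearest segments held 28.1% and 21.4% in OFF, 32.3% and 6.12% in ON, and 28.1% and 6.76% in WT, with no order of the groups. By family, the Ighv1 family (93 members, the largest) held 57.1% of pooled Ighv counts in OFF, 32.1% in ON and 57.6% in WT. The ON share came from ON 1 at 23.9%, since ON 2 had 48.98% and the libraries of the other groups 48.96% to 68.9%. The Ighv6 family had 54 counts in ON, 45 of them from Ighv6-3 in ON 1, and the Ighv4 family had 46, all from Ighv4-1 in ON 1. The Igkv8 family, with Igkv8-28, held 22.4% of pooled Igkv counts in OFF, 8.81% in ON and 2.72% in WT. It was 35.6% in OFF 1 and 9.62% in OFF 2, so without OFF 1 the OFF share was near the 10.7% of ON 1.

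**Figure D5:**
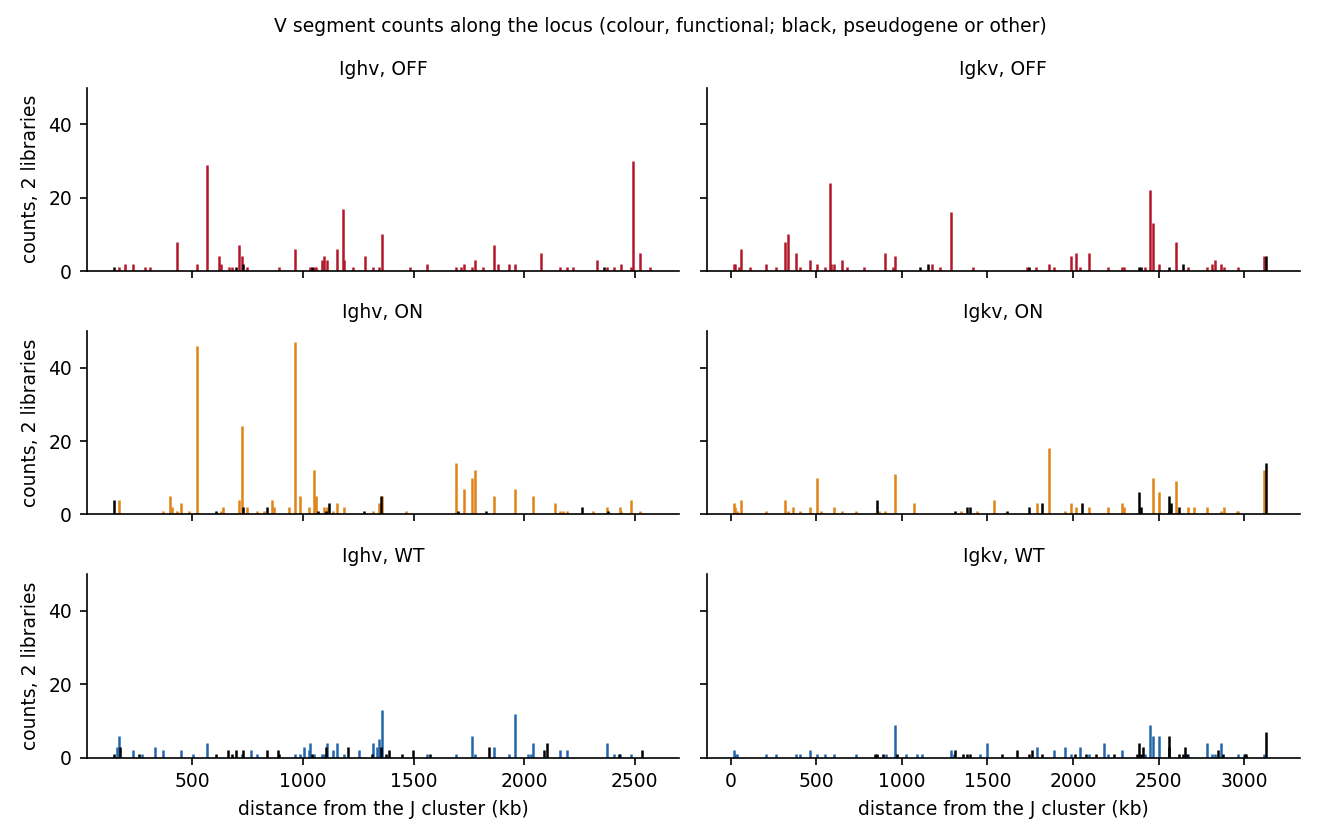
Counts of each Ighv (left) and Igkv (right) segment, summed over the 2 libraries of a group, against its distance from the J cluster in kb, with coloured lines for functional segments and black lines for pseudogenes and others. Tall lines in OFF and ON are single segments, such as Ighv4-1 with 46 counts in ON, and black lines are shortest in OFF.

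Many V segments resemble each other, which limits how far a count can be tied to one. The nearest other V segment over at least 80% of the length was 95.2% identical at the median among functional segments and 92.0% among pseudogenes, and 21 functional segments had a neighbour at 98% or more. None had a copy at 100%. For the 14 members the nearest segment was 82.1% to 97.6% identical, with Igkv1-136 at 82.1% to Igkv1-110 and Igkv8-28 at 97.6% to Igkv8-19. How the counting treated reads that match more than 1 segment is not given in the sources used here, and reads with more than 1 alignment were listed apart in the table, at 13.3% to 14.98% of the reads listed per library.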

How the data were processed

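The table as deposited by the authors holds raw counts per gene for 6 libraries, without normalization. Alignment was to GRCm38 per the labels' protocols, and R 3.6.2 and edgeR are named among the submitters' processing notes. The sources used here do not give the aligner, the counter, its use of strand or the annotation. Reads in genes were 33.7% to 46.9% of the reads listed per library, and the 5 summary rows, which hold the others, entered no fit. Intervals cover counting error only, and without molecular identifiers reads are not independent molecules.

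Gene identifiers were matched to GENCODE M21 (47310 of 47729), from which symbols, biotypes, coordinates and transcript sequences were taken. Tests used the quasi-likelihood method of edgeR (version 4.0.16, R 4.3.3; filterByExpr at 10 and 15 counts, TMM, all 6 libraries, 3 residual degrees of freedom) with Benjamini-Hochberg adjustment at 0.05, and with DESeq2 1.42.0 as an alternative. Replicates differed by more than sampling noise (chi-square per degree of freedom 20.1 in OFF, 69.5 in ON and 9.90 in WT). Whether replicates were separate animals is not in the labels, and the spread behind each p-value may be technical. With 2 libraries against 2 an exact two-sided p cannot go below 0.33. Nearest copies were found with blastn 2.17.0, and the steps were tested on simulated data. Equal-depth segment numbers were computed from the counts by the hypergeometric formula.

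The members and lists were chosen with earlier results of these data known. The V segments to name were the 6 of most counts per locus with at least 20, the top segment of each library and locus, and any called. From each list the 3 genes of most counts and those called, up to 6, could be named, and not all were. Igha, Ighg1, Ighg2b, Iglc1, Sdc1, Tnfrsf17, Cd79a, Cd79b, Ms4a1, Iglv2, Iglv3 and the further V segments with 10 counts in a library were named outside this rule. Cxcr5, Pou2af1, Cd22, Cd72, Irf4, Prdm1 and Dntt were named after their values had been seen. Lists of CD8 T cell, red cell, class switch and V(D)J joining genes were also tested, with results in the closing section. Alternatives were RLE scaling, no low-count filter, DESeq2, only the libraries of 2 groups, a replicate block, leaving out each library, functional segments only and other count thresholds. Chosen once the data had been seen were combinations with no filter and a block with crossed numbers. So were, without 1 library, ratios of functional segments, pseudogenes and members at 0, family shares, and counts of list genes called.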

Additional observations from a re-analysis of the deposited data

How the results depend on the processing

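For OFF against ON, 162 genes became 497 with DESeq2, 58 with only the libraries of the 2 groups, 60 with the replicate block and 67 to 619 without 1 library. For ON against WT, 2342 became 1441 with the block and 368 to 2398 without 1 library, and for OFF against WT 1078 became 663 and 223 to 1601. Same-numbered libraries did not deviate together (correlation -0.20 for OFF and ON, 0.08 for ON and WT, -0.21 for OFF and WT). With 1 replicate difference per group this cannot show whether the libraries were paired, and the labels state no pairing. With crossed numbers, a block chosen once the data had been seen, 1210, 3754 and 2083 genes were called in the order above. V segments called stayed at 0 except without the filter (1 for OFF against WT), without the filter and with the block (1 for ON against WT, Ighv4-1) and without 1 library (0 to 2 for OFF against ON, 0 to 4 for ON against WT, 0 to 2 for OFF against WT). By construction such a fit leaves a lone library that lets a segment pass. Without ON 1 these were Ighv7-3 (ON against WT), Ighv1-81 and Igkv8-28 (OFF against WT), and without ON 2 Ighv4-1 and Ighv6-3 (lower in OFF than in ON, higher in ON than in WT), Igkv1-88 and Iglv1 (ON against WT), Ighv1-81 and Igkv8-28. With no filter and 1 library left out, 1 passed without ON 1 and 4 without ON 2, all in ON against WT. The log2 ratio of OFF to WT was 0.75 for functional Ighv segments, against 0.32 for all, and 1.08 for functional Igkv segments, against 0.48. At least 10 counts were reached by 34 segments and 50 by 1, and without 1 library 9 to 13 segments reached 20.

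The named list genes followed through the settings were Igkc, Iglc1, Iglc2, Iglc3, Ighm, Ighd, Jchain, Ms4a1, Cd79a and Cd79b. Of their differences, 4 turned sign. In OFF against ON, Iglc1 ranged from -2.10 to 1.37, Iglc2 from -0.74 to 0.25 and Cd79b from -0.047 to 0.70 without 1 library, and in OFF against WT Ighm ranged from -0.059 to 0.18. The replicate block ended 3 calls of named list genes (Ighm and Ms4a1 in ON and Ighd in OFF, against WT) and added Iglc1 in ON against WT. Over the named list genes 269 values kept direction and call, 42 lost the call and 14 gained it. The cause of these changes was not tested. No segment had over 54 counts in all, which limits what differences were detectable at this depth.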

Other observations

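General end-joining genes, which all cells use to repair DNA breaks and which V(D)J joining also needs (7 listed, such as Prkdc, Lig4 and Xrcc5), summed to 234 and 229 CPM in OFF, 215 and 200 in ON, and 224 and 229 in WT, and 1 of the 7 passed the test by edgeR, lower in ON than in WT, a call that did not hold when any library other than ON 1 was left out. Among all genes tested, 4.70 percent were higher in OFF than in WT, and 9.68 percent were higher and 5.16 percent lower in ON than in WT. Of the 4 class switch genes 3 were tested, with 1 higher in OFF and 1 higher and 1 lower in ON relative to WT. Of 170 T cell receptor V segments 79 were tested, and 3 were higher in ON than in WT, with 0 called in OFF against WT and OFF against ON by edgeR (7 and 4 at an unadjusted p under 0.05). The 3 became 0 without WT 1 or WT 2, and the 0 in OFF against WT became 2 without ON 1 and 1 without ON 2, and 1 was lower in OFF than in ON without ON 1. Of the 2 CD8 genes 1 was higher in OFF and 1 in ON relative to WT, and their sums were 14.1 and 17.9 CPM in OFF, 18.1 and 23.7 in ON, and 14.4 and 13.8 in WT. Of the 10 T cell markers 1 was higher in OFF and, in ON, 1 was higher and 1 lower relative to WT. In OFF the calls of the T cell marker and the class switch gene did not hold without OFF 2, WT 1 or WT 2, nor that of the CD8 gene without OFF 2 or WT 1. In ON those of the T cell markers did not hold without ON 2, WT 1 or WT 2, nor that of the lower class switch gene without WT 1 or WT 2. The 1 red cell gene tested passed in no comparison.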
